A study of Triticum aestivum with 9 samples.

Results

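The second step of grain filling, from 15 to 20 days post-anthesis, was examined in entire seeds of the hexaploid cereal Triticum aestivum, or bread wheat. All grains came from 1 cultivar, Jimai 20, grown in field plots without any treatment, and carried no transgene or mutation that the labels name. The comparison was defined by the sample titles and not by any measured value: the 3 arrays of phase P3 (20 days) against the 3 arrays of phase P2 (15 days), 6 of the 9 arrays of the series. The other 3 arrays, phase P1 at 11 days, entered the estimate of the spread and are given as the level from which the grain arrived at 15 days. The labels describe 3 biological replicates per phase. RNA of the whole seed was hybridised to an Affymetrix wheat GeneChip, on which each probe set reads a transcript with a series of short oligonucleotides. Because embryo, endosperm, aleurone and pericarp were pooled in every sample, fewer cells of a type and less RNA per cell cannot be told apart.

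In this window a cereal grain fills. The starchy endosperm, which makes up most of the grain, deposits starch and the gluten proteins (gliadins and glutenins), together with small proteins that inhibit insect and microbial enzymes. The embryo and the aleurone layer begin to prepare for drying, a programme under abscisic acid in which late embryogenesis abundant (LEA) proteins and dehydrins accumulate, while the green layer of the pericarp, which photosynthesises in the young grain, loses its chlorophyll. The label of developing seed was borne out by the storage protein genes: the gliadin gene GAG56D gave, on its brightest probe set, signals of 47533, 51019 and 45484 on the 3 arrays at 15 days and 49108, 47762 and 60786 at 20 days, among the brightest of the array.

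Of 61115 probe sets that are not controls, 36669 passed a filter on mean log2 signal over all 9 arrays. A probe set was called when limma's adjusted p was below 0.05 and its signal differed at least 2-fold, and "rose" and "fell" are used for such calls only. Under this rule 1634 probe sets rose and 1016 fell, 7.23% of those tested (4.46% rose and 2.77% fell). With no minimum fold, 9527 probe sets (26% of those tested) passed, 5468 of them higher and 4059 lower at 20 days. Large fitted changes were few and were spread over both directions: 233 probe sets rose and 236 fell at least 4-fold, and 43 rose and 81 fell at least 8-fold. At 4-fold, 127 of these rises and 101 of these falls were below array background throughout the dimmer phase, so their size is only a bound. A further 11 rises and 13 falls were below it in both phases. At 8-fold, 20 of the rises and 32 of the falls had only a bound. The median log2 change over all probe sets tested was 0.07. Signals of the 3 arrays of a phase did not overlap with those of the other phase for 14769 probe sets, 40.3% of those tested (23.2% with the later phase higher and 17.1% with it lower). The plot of change against signal shows calls at every brightness up to a log2 signal of about 15.

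**Figure D1:**
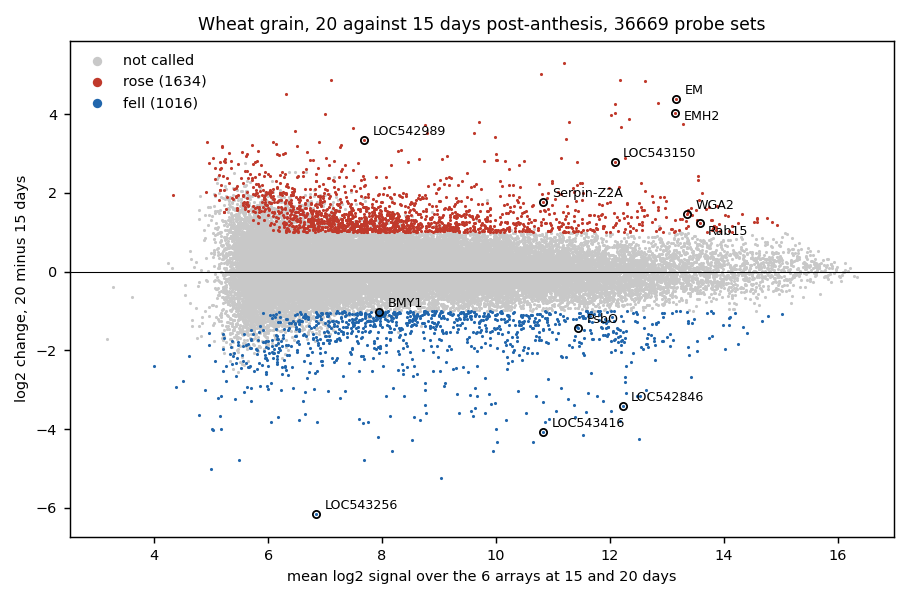
Log2 change from 15 to 20 days (vertical axis) against mean log2 signal over the 6 arrays (horizontal axis) for 36669 probe sets, with the 1634 that rose in red, the 1016 that fell in blue and the others in grey. EM and EMH2 combine a high signal with a rise of over 4 on the log2 scale, and LOC543256 lies lowest of all.

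Several measures of the arrays themselves moved with the phase. Spiked poly-A control transcripts, added to the RNA before labelling, were lower at 20 than at 15 days, by a log2 difference of -0.999, while spiked hybridization controls differed by 0.01. The log2 ratio of 3′ to 5′ probe sets of wheat control transcripts was 2.11 ± 0.09 at 15 days and 2.53 ± 0.07 at 20 days (SD, n = 3; exact permutation p = 0.1, two-sided, the smallest that 3 against 3 arrays allow). Adjusted over 7 such measures this p was 0.233. For the poly-A controls the same ratio was 1.44 ± 0.15 at 15 days and 2.14 ± 0.02 at 20 days. At 11 days the wheat ratio read 3.16, 3.20 and 3.59 and the poly-A ratio 2.28, 2.08 and 2.25. The poly-A level about its mean was -0.26, -0.20 and -0.22 at 11 days, 0.61 at 15 days and -0.39 at 20 days. On the poly-A level and ratio the arrays at 15 days thus stood apart from both other phases. The wheat ratio differed between all 3 phases, lowest at 15 days and highest at 11 days. With the wheat ratio as a covariate in the model, 957 probe sets rose and 681 fell. All changes below are relative to the total signal of an array. Scaling to the poly-A controls instead would add the same amount to every log2 change, move the median change to 1.07 and give 18543 rises and 191 falls (99.0% of calls are rises, against 61.7%). P3 replicate 3 stood apart among very bright probe sets. Over the 250 with a mean signal of 30000 or more it was 0.34 above the other P3 arrays on the log2 scale (median) and the highest of the 3 in 241. Without it, 1505 probe sets rose and 989 fell.

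Genes of the desiccation programme showed the highest rises among named genes. The list of LEA and dehydrin genes held 10 probe sets on the array, of which 9 of 4 genes were tested. Of the 9, 8 rose (4.46% of all probe sets tested did) and none fell. The median log2 change was 4.04 against 0.07 for all probe sets tested. With 1 probe set per gene the list median was 2.76, and with no filter, so that all 10 counted, it was 2.72. EM (LOC543497) encodes the Em protein, a small hydrophilic LEA protein of the maturing embryo. Its brighter probe set, with the suffix _s_at, gave 34.2, 50.5 and 35.7 at 11 days, below background on all arrays. At 15 days the values were 1982, 2023 and 2036, and at 20 days 39897, 40167 and 46946. The arrays at 20 days were all far above those at 15 days, with no overlap, a rise of 4.39 ± 0.13 on the log2 scale (SE; 21.0-fold, adjusted p = 5.99e-10). Its probe set with the suffix _x_at rose by 4.87 ± 0.39 (adjusted p = 2.39e-06), from 849, 958 and 781 to 23754, 22530 and 29578.

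EMH2, a gene of the same Em family, rose on each of its 3 probe sets, by 4.04, 4.29 and 4.84 on the log2 scale. On the one that rose by 4.84 its signals were 1009, 1471 and 1094 at 15 days and 31525, 31269 and 38447 at 20 days (adjusted p = 1.01e-05). Probe sets of EM and EMH2 with the suffixes _s_at and _x_at can bind related transcripts, so the copies are uncertain as separate measurements. Rab15, a dehydrin gene of the kind induced by abscisic acid, rose less: by 1.23, 1.32 and 1.41 on its 3 probe sets. On the one that rose by 1.32 the arrays read 5955, 6027 and 5287 at 15 days and 14567, 13265 and 15312 at 20 days, 2.50-fold higher (adjusted p = 1.57e-06). LEA1 was the member that was not called. Its arrays overlapped, with 11704, 13015 and 15708 at 15 days and 16909, 17532 and 15293 at 20 days, and the log2 change was 0.31 ± 0.11 (adjusted p = 0.0503).

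The lectin gene WGA2, which encodes a wheat germ agglutinin found in the embryo, rose 2.77-fold. Its probe set read 6318, 6216 and 6305 at 15 days and 17526, 16431 and 18306 at 20 days, so that no array of one phase came near the other. At 11 days it had read 94.8, 16.3 and 23.3, all below background. The log2 change of 1.47 ± 0.46 had an adjusted p of 0.0325, since the spread is shared with the P1 arrays: without P1 replicate 1 it was 4.8e-06, and with the 6 arrays of P2 and P3 alone 2.63e-07. The call was lost when any of those 6 arrays was left out (adjusted p from 0.0702 to 0.081), without the intensity trend (0.111) and with the 3′ to 5′ ratio as a covariate (0.0876).

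Some inhibitors of proteases rose as well. Serpins are suicide inhibitors of serine proteases, and wheat grain is rich in them. Serpin-Z2A read 1046, 920 and 995 at 15 days and 3510, 3363 and 3286 at 20 days, a rise of 1.78 ± 0.13 on the log2 scale (3.43-fold, adjusted p = 9.77e-07). Serpin-Z1C went from 4453, 4260 and 6723 to 13982, 13938 and 11408, a rise of 1.37 ± 0.15 (adjusted p = 2.57e-05). Groups did not overlap for either gene. Together these were 2 of the 13 tested probe sets of the list of protease, amylase and xylanase inhibitors, where 4.46% of all probe sets rose, with no fall and a list median of 0.22. The xylanase inhibitor XIP-I came close to the minimum fold, with 25023, 25099 and 23452 at 15 days and 40479, 40817 and 54749 at 20 days on the brighter of its probe sets (1.83-fold, adjusted p = 5.20e-05). Among the amylase and trypsin inhibitors ATI had the brightest signals of the list. Its probe set with the suffix _s_at overlapped between the phases and read 55826, 62470 and 54330 at 15 days and 55062, 54881 and 74248 at 20 days, the last value being that of P3 replicate 3. P3 replicate 3 was the highest P3 array for 11 of the 13 probe sets.

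**Figure D2:**
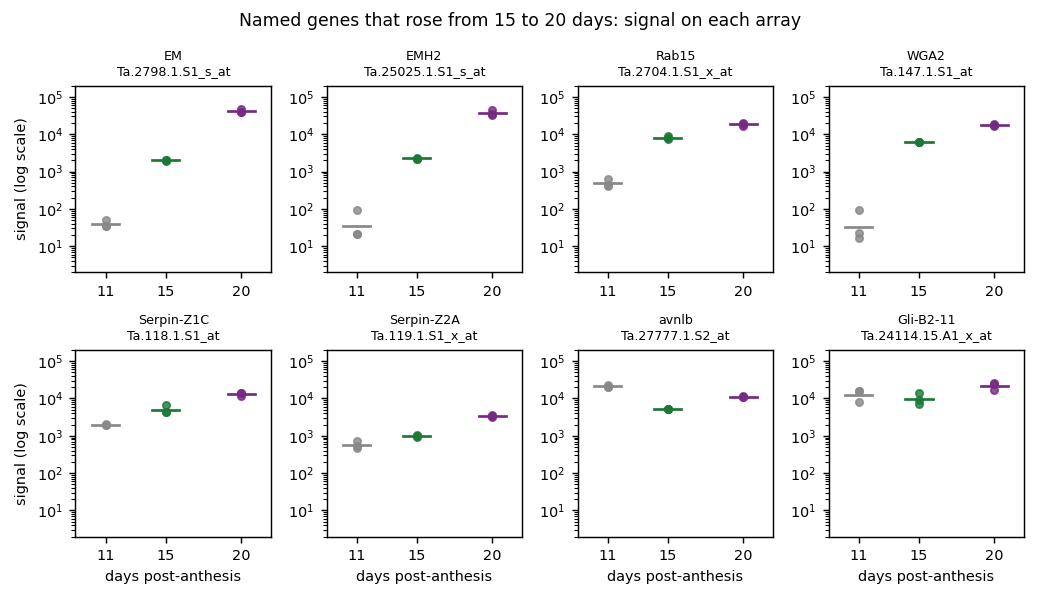
Signal on each array (log scale) at 11, 15 and 20 days for 8 named genes that rose from 15 to 20 days, with points for single arrays and bars for the geometric mean of 3. The probe set shown is the brightest one called for the gene. EM, EMH2 and WGA2 were below background at 11 days, whereas the avenin-like gene avnlb was higher at 11 days than at 15 or 20.

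Among gluten proteins and their relatives 2 of 17 tested probe sets rose and none fell, where 4.46% of all probe sets rose, with a median of 0.50. Whatever the fold, 9 of the 17 were higher at 20 days with an adjusted p below 0.05, against 14.9% of all probe sets. One of the 4 probe sets of avnlb, an avenin-like storage protein gene, rose: it read 5114, 5162 and 5206 at 15 days and 11597, 10779 and 10954 at 20 days (2.15-fold, adjusted p = 2.44e-07). The other three were higher by 0.11 to 0.61 on the log2 scale. At 11 days that probe set had read 20055, 23246 and 20871, so it fell 4.14-fold in the first step and rose in the second, and the difference between the steps was 3.15 ± 0.12 on the log2 scale (adjusted p = 3.5e-09). Both steps share the P2 arrays. The related gene avnla was lowest at 15 days on its brighter probe set too, with 48405, 51146 and 44212 at 11 days, 23631, 24816 and 25795 at 15 days and 44255, 43090 and 59947 at 20 days. Its second step of 1.96-fold lay just below the minimum fold (adjusted p = 5.35e-05).

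The alpha-gliadin gene Gli-B2-11 rose on its 1 probe set, from 7046, 9217 and 14324 to 23808, 26103 and 16910 (2.24-fold, adjusted p = 0.00915). Its arrays came close to each other: the highest at 15 days and the lowest at 20 days were 14324 and 16910. Without P2 replicate 1 the log2 change was 0.93 and below the minimum, and without the intensity trend in the variances the adjusted p was 0.055. The LMW probe set, of a low molecular weight glutenin gene, that was brightest at 20 days was 1.56-fold higher at 20 days (25304, 27721 and 24971, then 39255, 37657 and 44885, adjusted p = 7.66e-05). Of the 3 tested LMW probe sets 2 were higher and 1 was lower, with log2 changes from -0.82 to 0.64. The lower one did not overlap between the phases and was not called. Gli-8 was at 68352, 72380 and 58843 and then at 48707, 50118 and 70054, with overlap (adjusted p = 0.233). Gli-D2-16, the brightest member of the list, overlapped too, with a log2 change of -0.14 (adjusted p = 0.531). Without P3 replicate 3 the list median was 0.36, with the same 2 rises.

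Thionins and puroindoline, small cysteine-rich proteins that bind membranes, had no call among 6 probe sets (median 0.45), where 7.23% of all probe sets were called. Of the 6, 4 were higher with an adjusted p below 0.05, against 14.9% of all probe sets. The largest difference was that of TTHV, a thionin gene, with 29191, 30943 and 32363 at 15 days and 47396, 44718 and 57587 at 20 days (1.61-fold, adjusted p = 1.27e-04). Pur-A1, a puroindoline gene, of the pair that governs grain softness, was 1.49-fold higher on its probe set with the suffix _at (37020, 34193 and 32601, then 48119, 46845 and 60900). The brightest member of the list, THI1.1, overlapped between the phases, with a log2 change of -0.01 (adjusted p = 0.982). P3 replicate 3 was the highest P3 array for all 6 probe sets, and without it 3 had an adjusted p below 0.05.

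Starch genes pointed the other way without reaching the minimum fold. All 4 tested probe sets of starch synthesis were lower at 20 days, with log2 changes of -0.56 to -0.22. Of the 4, 1 was below background on all 6 arrays. None of the 4 was called, where 7.23% of all probe sets were. GBSS-I, the granule-bound synthase that makes amylose, read 16334, 14801 and 14423 at 15 days and 11211, 10994 and 12539 at 20 days (1.31-fold lower, adjusted p = 0.00162). AGP-S, the small subunit of the ADP-glucose pyrophosphorylase that feeds starch synthesis, read 37146, 42023 and 35237 and then 31228, 32618 and 34466 (adjusted p = 0.0672). Under scaling to the poly-A controls the list median turned from -0.46 to 0.54. BMY1, a beta-amylase gene, fell from 360, 354 and 337 to 205, 133 and 189, at the minimum fold (2.03-fold, adjusted p = 3.01e-04). It had been much brighter at 11 days, at 2677, 2821 and 2679. Without P3 replicate 2 its log2 change was -0.83, below the minimum. The glucanase gene Glc1 read 1699, 1632 and 1420 and then 747, 756 and 1148; it was 1.82-fold lower with all arrays, and without P3 replicate 3 it met the call rule at -1.07.

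Photosynthesis genes held 7 of the 10 falls among probe sets with an informative gene name. The list had 36 probe sets on the array, of which 15 of 6 genes passed the filter, and of these 7 fell, where 2.77% of all probe sets fell, and none rose, with a median log2 change of -1.02. With the 3′ to 5′ ratio of the wheat controls as a covariate 3 of the 15 fell, those of PsbO and PsbP, and the median was -0.84. PsbO and PsbP encode subunits of photosystem II at the site where water is split to oxygen. PsbO read 4843, 4315 and 4543 at 15 days and 1731, 1564 and 1815 at 20 days, 2.68-fold lower (adjusted p = 2.08e-07), after 7913, 7741 and 9204 at 11 days. PsbP fell on both of its probe sets, 2.69-fold on the one with the suffix _at (6697, 7040 and 5683, then 2377, 2267 and 2557; adjusted p = 1.86e-07) and 2.77-fold on the one with the suffix _x_at (adjusted p = 9.3e-07). No array of one phase reached the other for these genes.

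The gene rbcl encodes the large subunit of Rubisco, the enzyme that fixes carbon dioxide in the chloroplast. Of its 9 tested probe sets 4 fell, and none of them was called with the covariate. Whatever the call, 8 of the 9 were lower and 1 was higher, with log2 changes from -1.85 to 0.69. The higher one was not called. The brightest of the 4 read 50557, 53205 and 42359 at 15 days and 21775, 21289 and 26607 at 20 days (2.10-fold lower, adjusted p = 2.23e-05). A brighter rbcl probe set that was not called was 1.48-fold lower (61865, 69110 and 61391, then 41382, 41978 and 46547; adjusted p = 2.17e-04). Another of the 4 was below background on all 6 arrays, so its call carries no fold, and it was lost in 7 of the alternatives. PRK, the phosphoribulokinase of the Calvin cycle, read 2883, 2695 and 2488 and then 1419, 1435 and 1412, 1.89-fold lower (adjusted p = 2.33e-06). The Rieske protein gene petC of the cytochrome b6f complex was 1.63-fold lower (adjusted p = 2.43e-05). Trx-M, a chloroplast thioredoxin gene of the redox list, read 1304, 1447 and 1327 and then 776, 820 and 647 (1.82-fold lower, adjusted p = 4.45e-05). With the poly-A scaling none of the 15 probe sets of the list fell, 1 rose, and the list median was -0.02. PsbO and the _at probe set of PsbP stayed lower there, by -0.42 and -0.43 on the log2 scale, short of the minimum fold. PRK was at 0.08, so its direction turned. With P2 replicate 2 or P3 replicate 3 left out 5 of the 15 probe sets of the list fell.

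**Figure D3:**
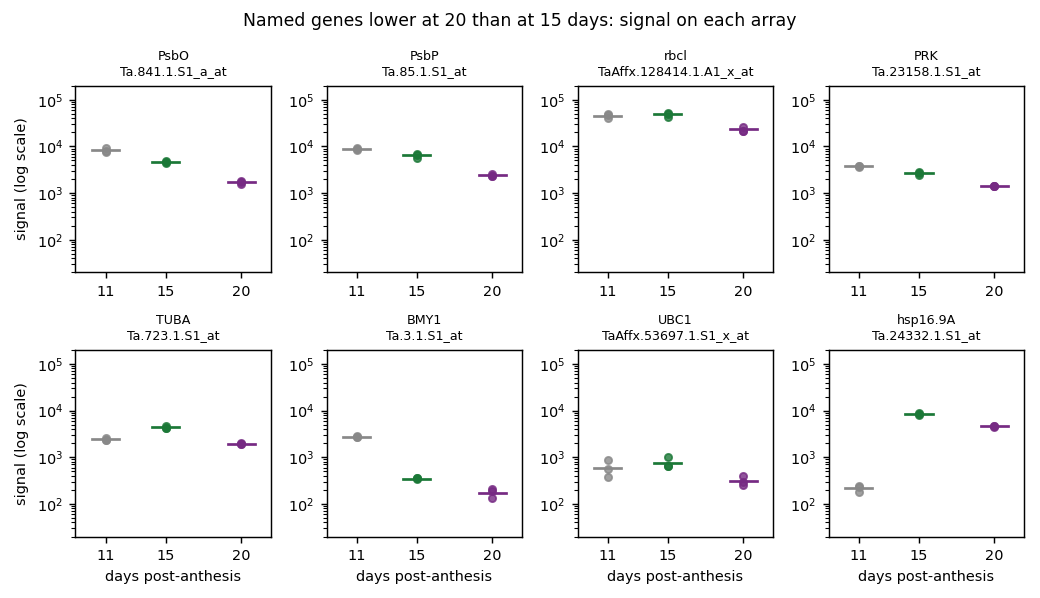
Signal on each array (log scale) at 11, 15 and 20 days for 8 named genes that were lower at 20 than at 15 days, with points for arrays and bars for the geometric mean of 3, for the brightest called probe set or, where none was called, the brightest. PRK and hsp16.9A were lower by less than 2-fold and were not called; hsp16.9A had risen steeply by 15 days, and the probe sets shown of PsbO, PsbP, PRK and BMY1 were already lower at 15 than at 11 days. The other PsbP probe set, not shown, had means of 1211 at 11 days and 1422 at 15 days.

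The remaining named genes moved singly. TUBA, an alpha-tubulin gene of the cytoskeleton, fell on 1 of 2 probe sets, which read 4786, 4329 and 4286 at 15 days and 2029, 1931 and 1946 at 20 days (2.27-fold, adjusted p = 2.18e-07). The other TUBA probe set was bright and overlapped (40132, 41834 and 38390, then 34994, 33713 and 43947). Over the list of tubulins and profilin 1 of 12 probe sets was called, a share close to the 7.23% over all probe sets, with a median of -0.16. UBC1, a ubiquitin-conjugating enzyme gene, fell on 1 of 3 probe sets (652, 1023 and 661, then 289, 395 and 252; 2.49-fold, adjusted p = 0.00432), and its brightest probe set overlapped between the phases (adjusted p = 0.101).

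Of 18 histone probe sets 17 were higher at 20 days, 12 with an adjusted p below 0.05 (14.9% of all probe sets were), with a list median of 0.41. Only 1 of the 18 rose, near the 4.46% of all probe sets. That one was wcH2A-2, a histone H2A gene, with 213, 141 and 282 at 15 days and 516, 513 and 325 at 20 days (2.16-fold, adjusted p = 0.00705). Without P2 replicate 2 its log2 change was 0.85, below the minimum. The wcH2B-8 gene for histone H2B was higher on all 7 of its probe sets, by 0.31 to 0.70 on the log2 scale, each with an adjusted p below 0.05. The brightest histone probe set, of wcH2A-9, overlapped between the phases, with a log2 change of 0.07 (adjusted p = 0.490). TPC1, a calcium channel gene, rose from 158, 168 and 120 to 322, 286 and 301 (2.05-fold, adjusted p = 0.00222), a value at the threshold that was not called in 7 of the alternatives. Without P2 replicate 3 it was 0.89 on the log2 scale. A probe set of the catalase gene CAT1 also met the rule, but it was below background on all 6 arrays, so no fold is given. The brighter CAT1 probe set read 601, 424 and 501 and then 286, 386 and 350 (adjusted p = 0.0201).

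A small chaperone gene, hsp16.9A, had the widest gap between the steps among genes with an informative name. It read 245, 183 and 227 at 11 days, 9007, 8589 and 8100 at 15 days and 4771, 4502 and 4574 at 20 days. The first step was 39.5-fold upward, and the second was 1.85-fold downward and below the minimum fold (log2 change -0.89, adjusted p = 4.21e-05). The difference between the steps was -6.19 ± 0.18 on the log2 scale (adjusted p = 3.3e-10). Over all probe sets such a difference was called for 6374, 17.4% of those tested (9.8% with the second step the higher and 7.58% with it the lower). Both steps share the arrays at 15 days, which stood apart on the spiked poly-A controls and had the lowest 3′ to 5′ ratio of the wheat controls. The part of this in the count was not tested. With the 3′ to 5′ ratio of the wheat controls as a covariate 353 were called. WGA2 differed by -6.10 between the steps and 1 probe set of Rab15 by -4.14, both because the first step was the steeper. Both were below background on all arrays at 11 days, so the sizes of these differences are uncertain. Serpin-Z1C rose by 1.35 and then by 1.37 on the log2 scale, with a difference between the steps of 0.03 ± 0.25 (adjusted p = 0.96).

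No member was called among 9 probe sets of protein synthesis, 5 of methyl transfer, 4 of fructan and sucrose and 4 of transcription. The same held for 4 of glycolysis and sugar phosphates, 2 each of lipid transfer, gibberellin synthesis and heat shock, and 1 of the cell wall. Over all probe sets tested 7.23% were called, so the absence of calls in lists this small is no result about them. SAHH, which clears the by-product of methylation reactions, read 28346, 29811 and 28321 at 15 days and 16173, 16028 and 21139 at 20 days (1.63-fold lower, adjusted p = 2.52e-04). XTH, an enzyme that remodels xyloglucan of the cell wall, read 610, 574 and 462 and then 250, 350 and 320 (1.80-fold lower, adjusted p = 0.00131). The translation factor gene TEF1 on its brighter probe set read 43338, 48642 and 45517 and then 42615, 42522 and 51080, with a log2 change of -0.02 (adjusted p = 0.913). Other brightest members of these lists were 1-FEH (log2 change 0.33), Pgk-1 (0.08), FKBP70 (0.11), LTP3 (-0.12), Hmgb3 (-0.31) and the dim GA20ox1d (-0.63). Outside these lists, ha1 of metal and ion transport (0.06) and PER1 of the redox list (-0.05) were brightest and not called. In 6-FEH, a fructan exohydrolase gene, the probe sets differed: the one with the suffix _x_at was 1.79-fold lower (adjusted p = 0.00178) and one with the suffix _a_at had a log2 change of 0.00 (adjusted p = 0.995). The plot by list shows that the LEA and dehydrin genes lay apart at one end and photosynthesis and glucan breakdown at the other.

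**Figure D4:**
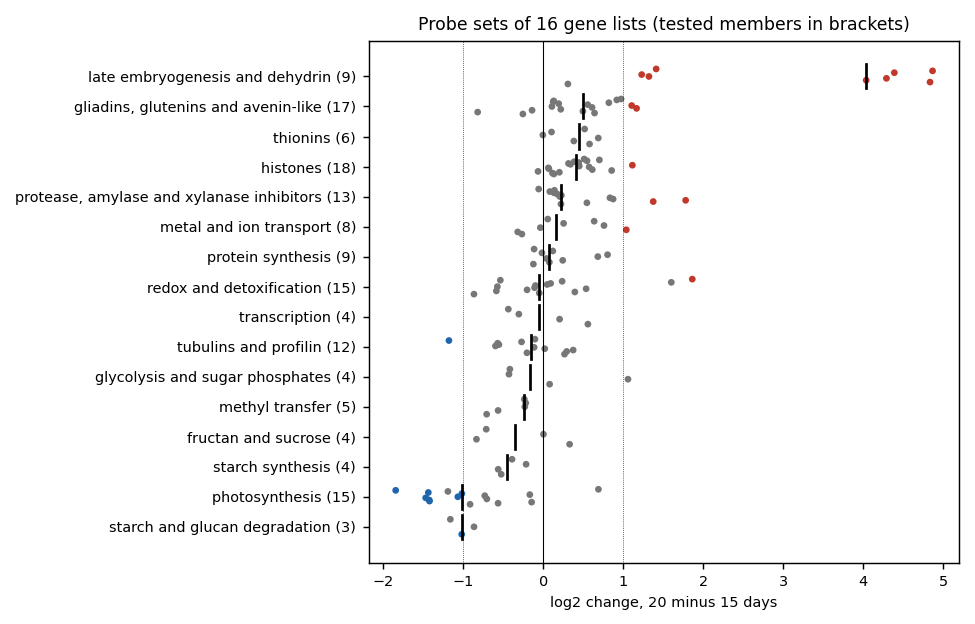
Log2 change from 15 to 20 days of each tested probe set in the 16 lists with at least 3 of them, ordered by the list median (black bar), with calls in red (rose) and blue (fell), other probe sets in grey and dotted lines at the minimum fold. The LEA and dehydrin list has a median of 4.04 (2.76 with 1 probe set per gene), and the photosynthesis and glucan degradation lists have a median of -1.02 each.

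Most named probe sets carry only a locus symbol (LOC and a number), with no description in the annotation, so their roles are not known here. Of 865 such probe sets of 583 genes, 49 rose and 56 fell, 12.1%, against 7.23% over all probe sets tested. They came from 41 genes that rose and 44 that fell. Of the 167 probe sets with an informative gene name 16 rose and 10 fell, and of the 35637 with no name 1569 rose and 950 fell (7.07%). The next values belong to the locus symbols with the 10 highest and the 10 lowest changes whose arrays did not overlap.

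LOC542989 rose most. On its probe set with the highest change it read 85.7, 76.6 and 41.1 at 15 days, below background on all 3 arrays, and 616, 675 and 691 at 20 days, at least 4.96-fold higher (fitted log2 change 3.35 ± 0.58, adjusted p = 9.76e-04). All 3 of its probe sets rose. LOC543150 was the brightest at 20 days among these 10 rises: its brighter probe set went from 1682, 1566 and 1710 to 11320, 10546 and 12481, 6.92-fold (adjusted p = 2.36e-08), after 222, 226 and 324 at 11 days. Its first and second steps were 2.71 and 2.79 on the log2 scale, and its second probe set rose too, by 1.89. LOC778400 rose on both probe sets, on one from 228, 261 and 301 to 1326, 1342 and 1382 (5.16-fold, adjusted p = 2.89e-07). The difference between its steps was 1.70 ± 0.26 on the log2 scale (adjusted p = 3.8e-04), the second being the steeper.

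LOC543201 had been at 7.0, 4.0 and 4.3 at 11 days, read 604, 1125 and 1036 at 15 days and rose to 2819, 2686 and 2948 at 20 days (3.17-fold, adjusted p = 7.46e-04). LOC543317 was below background at 15 days (26.6, 126 and 120) and read 438, 513 and 543 at 20 days, at least 3.73-fold higher (adjusted p = 0.00415). LOC543142 rose from 192, 146 and 193 to 665, 740 and 593 (3.78-fold, adjusted p = 0.0149), a call lost without P2 replicate 2 or P3 replicate 2 (adjusted p = 0.0508 and 0.0546). The other four were dim at 15 days. LOC542794 went from 146, 26.1 and 199 to 419, 453 and 523, a call lost when any P3 array was left out (adjusted p from 0.0589 to 0.0721). LOC542839 was at least 1.89-fold higher, LOC543422 at least 1.48-fold and LOC542937 at least 1.09-fold, and when dim signals were raised to background none of these 3 met the rule. Leaving out single arrays also ended the call of LOC542839 (all but P2 replicate 3 of the 6 arrays) and of LOC543422 (P2 replicates 2 and 3, P3 replicates 1 and 2).

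Among falls of locus symbols, LOC543256 had the largest fitted change. LOC543256 went from 844, 926 and 1164 at 15 days to 10.9, 7.02 and 32.6 at 20 days, below background on all 3 arrays and at least 8.90-fold lower (fitted log2 change -6.16 ± 0.42, adjusted p = 6.68e-07). At 11 days it had been at 1680, 1248 and 1417. A different course was seen for LOC543416, which was at 562, 402 and 434 at 11 days, 7612, 6859 and 7970 at 15 days and 400, 461 and 467 at 20 days. Its second step of -4.08 ± 0.13 on the log2 scale (adjusted p = 6.67e-10) took back a first step of 4.02.

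Several more genes were highest at 15 days. LOC543477 read 137, 95.5 and 88.3, then 2639, 2890 and 2832, then 192, 227 and 239 (12.8-fold lower in the second step, adjusted p = 2.39e-08). LOC542846 read 296, 330 and 266, then 15333, 15906 and 15590, then 1467, 1508 and 1424 on one probe set, 10.6-fold lower (adjusted p = 1.2e-10), and its other probe set fell by 3.16 on the log2 scale. LOC543421 read 1258, 1292 and 1273, then 22015, 22057 and 22753, then 5094, 5079 and 5204 (4.35-fold lower, adjusted p = 2.22e-10). For these 3 genes the steps differed by -8.40, -9.13 and -6.25 on the log2 scale. LOC543244 was higher at 15 days too, with 4651, 5948 and 5192, then 12822, 12360 and 12356, then 1926, 2184 and 1738 (6.45-fold lower, adjusted p = 3.05e-09).

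LOC780623 read 4917, 5234 and 5213 at 11 days and 5310, 5116 and 4890 at 15 days, and fell to 997, 1132 and 1289 in the second (4.50-fold, adjusted p = 7.54e-09). LOC778395 fell from 192, 251 and 195 to signals below background (13.1, 21.0 and 65.8), at least 1.94-fold, and LOC100049032 from 286, 229 and 337 to 72.5, 81.4 and 27.6, at least 2.58-fold. LOC543023 was at least 1.18-fold lower, with arrays at 138, 87.9 and 176 and then 27.8, 11.0 and 85.2 that nearly met. Its call was lost when P2 replicate 1 or 3 or P3 replicate 1 or 2 was left out (adjusted p from 0.0691 to 0.0973). The other tested probe set of LOC543023 was not called, with a log2 change of -0.02. Raising dim signals to background took LOC778395 and LOC543023 below the minimum fold.

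**Figure D5:**
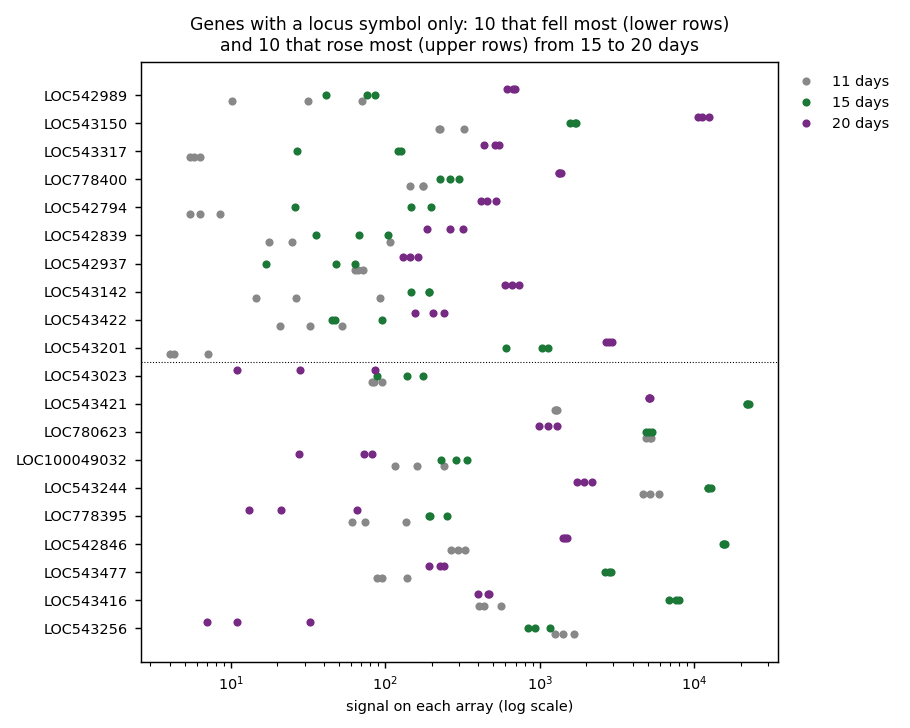
Signal on each array (horizontal log axis) at 11, 15 and 20 days for the 20 genes with a locus symbol only, the 10 that fell most in the lower rows and the 10 that rose most in the upper rows. The 3 arrays of LOC543416, LOC543477, LOC542846 and LOC543421 at 15 days lie to the right of all others in their rows, while LOC543150 moves right at both steps.

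Where a gene with a call had several probe sets, their changes were usually of 1 sign. Genes without a call were not counted here, and probe sets of 1 gene can bind the same transcripts. Of 44 named genes with at least 1 call and several tested probe sets, 39 had changes of 1 sign on all of them, 19 had all of them called, and none had both a rise and a fall. LOC780664, chosen after its values were seen, fell on all 4 of its probe sets, by -1.52 to -1.79 on the log2 scale. On one of them it read 8902, 8347 and 7872 at 15 days and 2424, 2266 and 2581 at 20 days (adjusted p = 5.77e-09).

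The pair of highest rises among probe sets without a gene name exceeded those of all named genes. The first rose from 409, 309 and 414 to 14460, 13258 and 16420, 39.2-fold (adjusted p = 1.42e-09), and the second from 309, 342 and 288 to 10137, 10608 and 9692, 32.4-fold (adjusted p = 1.37e-10). The identifier of the first shares its stem with that of an EMH2 probe set, and whether the pair reads related transcripts was not tested. Of the lowest pair among unnamed probe sets, one went from 3029, 2987 and 3711 to 65.5, 96.9 and 95, below background and at least 29.6-fold lower (adjusted p = 1.42e-09). The other went from 211, 158 and 180 to 24.3, 2.73 and 2.70, which allows a fall of at least 1.67-fold, and it did not reach the minimum fold once dim signals were raised to background.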

How the data were processed

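The authors deposited linear probe set intensity values for 61290 probe sets on each of 9 arrays; the submitters' processing notes name MAS5, with no version or settings given in the sources used here. Per the labels' protocols, RNA was extracted with Trizol and labelled with biotin. The deposited values had a trimmed mean of 500.1 on every array (2% trimmed at each end), so each array had been scaled to 1 target. Control probe sets (175) were left out.

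Log2 of the deposited signals (pseudocount 0) was fitted with limma 3.58.1 in R 4.3.3, 1 model over all 9 arrays with phase as the factor (6 residual degrees of freedom) and variances moderated with an intensity trend. The dimmest 40%, ranked on their mean over 9 arrays, were dropped (limit: a geometric mean of 44.8). Benjamini-Hochberg adjustment ran over the remaining 36669. Groups and replicate numbers came from the sample titles. The script was tested on simulated data.

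Array background was the 95th percentile of 64 reporter probe sets, which are foreign to wheat: 103.8, 153.3 and 148.2 at 15 days and 111.9, 115.7 and 99.7 at 20 days. Where a probe set lay under it on every array of 1 phase, "at least" precedes the fold, which then sets the bright phase's mean against the background of the dim arrays. Folds are otherwise ratios of geometric means. Depth has no meaning for arrays; their number, 3 per phase, limits the precision.

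The platform annotation gives 1 gene symbol to 1273 probe sets, several to 0 and no symbol to 59842, with 771 genes in all, of which 770 matched the RefSeq gene table of wheat by gene identifier; 102 had an informative symbol or synonym and 669 a locus symbol only. Wheat is hexaploid, so a probe set can bind transcripts of related copies.

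Genes named in the text are each informatively named gene with a call and the brightest member of each list. Also named are the 10 highest and 10 lowest called locus symbols without overlap. The 2 highest and 2 lowest unnamed probe sets are given by their values. Other genes with an informative name are further list members, not all of them near the thresholds. The gene lists and members were chosen with earlier results of these data known. Same-numbered replicates did not deviate together across phases (correlations from -0.05 to 0.03), so numbers were not treated as pairs. Alternatives changed the normalization, filter, pseudocount, floor, variance model, arrays and covariates. Detection calls were not used here.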

Additional observations from a re-analysis of the deposited data

How the results depend on the processing

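The main counts were 1634 rises, 1016 falls and 6374 differences between steps. Scaling to the poly-A controls gave 18543, 191 and 25669. With no minimum fold 5468 probe sets were higher and 4059 lower. Raising dim signals to background left 1036 rises, and background was higher at 15 than at 20 days, so the floor itself moved the median log2 change to -0.13. With the 3′ to 5′ ratio of the wheat controls as a covariate there were 957 rises and 353 step differences; that ratio differs between the phases, and the cause was not tested. With it, among the genes the text names, the calls of WGA2, Gli-B2-11, wcH2A-2, TPC1, BMY1, UBC1, CAT1, 1 Rab15 probe set, all 4 rbcl probe sets, LOC542794, LOC542839, LOC542937, LOC543317, LOC543023 and LOC778395 were lost. Leaving out 1 array at a time gave 1305 to 1765 rises and 898 to 1033 falls. The other normalizations kept the counts within 1.5 times, quantile normalization with 1403 rises and 1194 falls and median scaling with 1391 and 1115. The replicate number as a block (the numbers do not pair the arrays) gave 1593 rises and 1004 falls. Among named probe sets 82 combinations of probe set and alternative lost the call, 8 gained it and 1144 kept their side and direction; another 34, of probe sets called in neither fit, changed sign, 13 of them under poly-A scaling (among them SAHH, XTH, AGP-S, Hmgb3 and TEF1) and 7 with the covariate; the call of the dim CAT1 probe set turned to -0.29 with dim signals at background. Signal near background limits the dim probe sets: 63 called probe sets were below it on all 6 arrays.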

Other observations

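Transcripts that crossed the array background were counted as well. Of the 36669 probe sets tested, 961 were below background on all 3 arrays at 15 days and above it on all 3 at 20 days, and 364 of them rose. Of the 961, 13 were among the 865 with a locus symbol only and 1 among the 167 with an informative name. The reverse course was taken by 114 of the 36669, of which 82 fell. Because this selection largely sets the direction, these calls are no separate view of the step. The background itself was 135 ± 27 at 15 days and 109 ± 8 at 20 days (SD, n = 3), which moves with these counts, and its part in them was not tested.

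Calls were spread over most of the range of brightness. Between signals of 100 and 30000 the share called lay between 6.96% and 8.89%, it was 5.12% below 100, and among the 250 probe sets at 30000 or more it was 0.8%, with 1 rise and 1 fall. At an adjusted p alone 32.4% of those 250 passed.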
